A study of Homo sapiens with 24 samples.

Results

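The comparison described here asks what changed in HepaRG liver cells when β-catenin was silenced and no Wnt3a was added. It sets 3 microarrays of cells given a siRNA against CTNNB1, the gene of β-catenin, against 3 microarrays of cells given a control siRNA. These 6 arrays, of 24 in the series, were chosen by their sample titles, HepaRG_transfected-CTNNB1siRNA_untreated and HepaRG_transfected-CTRLsiRNA_untreated. HepaRG is an established human hepatocellular carcinoma line whose cells can take on features of hepatocytes and of bile duct cells. The series holds 8 conditions with 3 arrays each: cells not transfected, cells with either siRNA, and cells given FZD8_CRD, a soluble domain that binds Wnt proteins, each with and without mouse Wnt3a at 200 ng/ml for 72 h. The labels describe growth with serum, insulin and hydrocortisone and stimulation in serum-free medium, and do not say which medium the transfected cells without Wnt3a had at the end. Cells of both groups compared here were seeded at low density, detached, and electroporated in suspension with 80 pmol of siRNA. The control cells therefore share the transfection, and neither group received Wnt3a or FZD8_CRD. The submitters describe the triplicates as independent cultures. The labels name a single siRNA product against β-catenin for these arrays, and on them other effects of that RNA and the effects of less β-catenin cannot be told apart.

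β-catenin is known for a role at the cell membrane, where it joins cadherins to α-catenin in adherens junctions, and for a role in the nucleus, where it acts with the TCF/LEF factors on the target genes of Wnt signaling. Without a Wnt signal, a destruction complex built on APC and AXIN marks it for degradation, and binding of a Wnt ligand to Frizzled and LRP receptors stops this. In the liver the pathway is known for setting the metabolism of the hepatocytes around the central veins, where glutamine synthetase is made, and for the growth of progenitor cells and tumours.

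Levels are given as the log2 of the background-subtracted spot intensity relative to the 75th percentile of the same array, so that 0 is the signal of that percentile. The percentile itself lay between 683.1 and 933.8 intensity units on the 6 arrays, and between 60.1% and 63.3% of the spots were well above background. No value was allowed below -6.13, the floor for signals too weak to detect. After a filter on low values, 24643 genes were tested, of which 15997 have a RefSeq symbol. A gene is called here at a Benjamini-Hochberg adjusted p under 0.05 from limma. The replicate number is also the slide, and both groups were on each of the 3 slides, so that differences within a slide can be given. On every slide the control siRNA was at the same array position and the β-catenin siRNA at another, and position and siRNA cannot be told apart.

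CTNNB1 itself was lower on every array of its siRNA. Its level was 3.35, 3.37 and 3.51 with control siRNA and 0.26, 0.35 and 0.52 with β-catenin siRNA, and the mean without transfection was 3.37. The groups lie far apart, and the control siRNA cells sit at the level of the untransfected ones. The difference was -3.03 (SE 0.17, adjusted p = 1.17e-09), which is 8.19-fold. The other CTNNB1 probe, for another transcript of the gene, went from a mean of 0.81 to -2.73, a difference of -3.53 (adjusted p = 2.64e-14). Both probes thus carry the label of the samples. JUP, which encodes γ-catenin, the closest relative of β-catenin in cell junctions, differed by 0.50 (adjusted p = 0.298) and was not called, while on the 6 arrays alone its adjusted p was 0.0487.

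The labelled cell line was checked against markers of liver cell types. ALB, the gene of albumin, had levels of 7.84, 7.66 and 7.79 with control siRNA and 8.68, 8.24 and 8.64 with β-catenin siRNA, and SERPINA1 and the bile duct keratin KRT19 were also among the strong signals. All 5 hepatocyte markers and 3 of 4 biliary markers were measured, with 0 of either called by limma, 1 hepatocyte marker and 0 biliary markers at an unadjusted p under 0.05, and an adjusted p of 0.136 for ALB. On the 6 arrays alone ALB (adjusted p = 0.0128) and TTR (0.0175), the gene of transthyretin, were called higher. EPCAM, the other biliary marker, was not above background on any of the 6 arrays. The summed signal of the hepatocyte markers, in multiples of the 75th percentile, was 397, 363 and 375 with control siRNA and 603, 461 and 576 with β-catenin siRNA, with ALB the strongest signal. That of the biliary markers was 292, 282 and 268 against 295, 305 and 273. The endothelial marker CLDN5 and the red blood cell marker HBB were not above background in either group, and LYZ had no probe. The other red blood cell marker, HBA2, was above background on 2 of 3 arrays of each group. It differed by -0.01 and was not called. Of the fibroblast or stellate cell markers, 2 of 5 fell. DES, which encodes the muscle filament desmin, went from 0.26, -0.06 and 0.13 to -0.72, -0.85 and -0.63, a change of -0.84 (adjusted p = 0.000227). PDGFRB, a receptor for platelet-derived growth factor, was well above background on 3 of 3 control arrays and 1 of 3 with β-catenin siRNA, and its call (adjusted p = 0.0377) was lost without any of 5 arrays. Its values there were -0.85 (adjusted p = 0.0728) without control 1, -0.86 (0.0612) without control 2, -0.65 (0.158) without control 3, -0.71 (0.13) without β-catenin siRNA 1 and -0.71 (0.129) without β-catenin siRNA 2. The summed signal of this list was 2.19, 2.01 and 1.85 with control siRNA and 1.59, 1.54 and 1.76 with β-catenin siRNA. Of the immune markers, CD14, a co-receptor for bacterial lipopolysaccharide that is also made by liver cells, fell by 1.12 (adjusted p = 0.000618), from 1.45, 1.59 and 1.19 to 0.53, 0.25 and 0.10, and of the endothelial markers PECAM1 fell by 0.94 (adjusted p = 0.0196). The other measured endothelial markers, VWF (-0.11), CDH5 (-0.01) and KDR (0.22), were not called, nor were the immune markers PTPRC (0.27) and CD3E (0.77). The summed signal of the endothelial markers was 3.23, 3.31 and 2.94 with control siRNA and 3.6, 3.63 and 3.53 with β-catenin siRNA, with KDR the strongest, so that the sum did not fall. That of the immune markers was 2.87, 3.08 and 2.37 against 1.6, 1.3 and 1.19, most of it CD14. The PECAM1 call was lost without control 1 (adjusted p = 0.0715), control 2 (0.0818) or β-catenin siRNA 3 (0.149), and on the 6 arrays alone (0.0726). With normexp the PECAM1 change was -0.41 (adjusted p = 0.0153). In bulk samples, fewer cells of a type and less RNA per cell cannot be told apart, and the part of either in the changes below was not tested.

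β-catenin siRNA changed 2605 of the 24643 genes (10.6%). Of these, 1085 were higher (4.4% of the genes tested) and 1520 lower (6.17%), and 5585 genes had an unadjusted p under 0.05. Most changes were small, with a median size of 0.52 on the log2 scale. At least 2-fold changes numbered 118 higher and 269 lower, and at least 4-fold changes 23 and 25. The median difference of all genes was -0.03, and on the 3 slides it was -0.07, 0.00 and -0.02. The 3 values of a group did not overlap with those of the other for 8900 genes (36.1%), and for 2597 of the 2605 called. Groups that lie apart, as described for single called genes, are thus nearly implied by the call and add little to it. Within slides, 2604 of the called genes changed the same way on all 3. The genes nearest to the threshold were CXorf38, called at -0.41, and SLC36A4, not called at -0.45, both with an adjusted p that rounds to 0.05. The count depends on single arrays and on the scaling. Without control 1, 2 or 3 it was 1435, 1726 and 1749, and without β-catenin siRNA 1, 2 or 3 it was 1722, 1751 and 1353. Scaling to the spike-in probes instead of the 75th percentile left 171 calls, of which 68 were higher. The spike-in signal relative to the 75th percentile was 2.70, 2.37 and 2.90 in the control arrays and 2.43, 2.48 and 2.79 in the others, so that it differed more between slides than between groups. With the slide as a block there were 4095 calls with the same log2 differences, and with the 6 arrays fitted alone 4321. Of 89 called genes followed through the alternatives beside CTNNB1, 0 changed direction and 74 lost their call in at least 1, most often with the spike-in scaling or without slide 1 or 2. The call of CTNNB1 held in each alternative. So did those of the other 15, which are IGFL2, IGFL3, IL7R, LINC03033, LRRC15, RGCC, DPEP1, CLDN2, DCN, MX2, OASL, CYP1A1, NSG1, MMP3 and ANKRD1, in each alternative that tested them. DPEP1, LRRC15 and MMP3 were not tested with the filter on all arrays. The plot of change against level shows that called genes occur at every signal level.

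**Figure D1:**
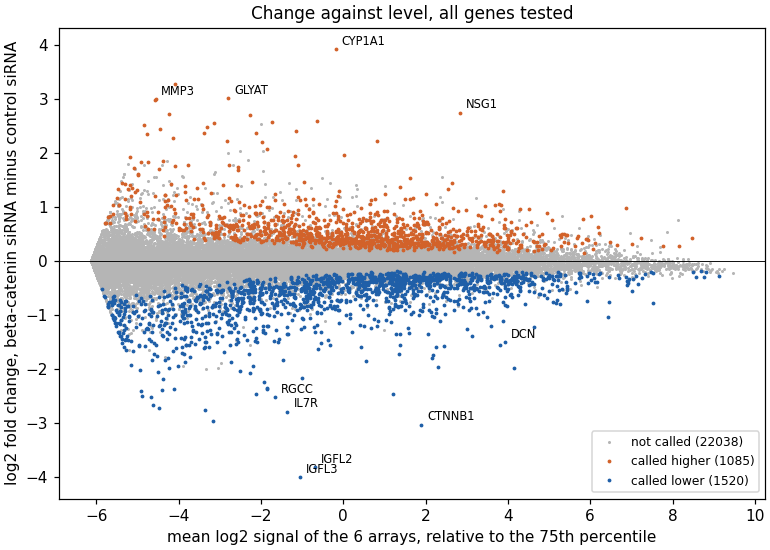
Log2 fold change (β-catenin siRNA minus control siRNA) of every gene tested against its mean log2 signal over the 6 arrays, relative to the 75th percentile. Orange points are the 1085 genes called higher, blue points the 1520 called lower, and grey points were not called; CTNNB1 stands apart from genes of like signal at -3.03.

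Among genes with a symbol, IGFL3 and IGFL2 had larger falls than the main CTNNB1 probe, and their relative IGFL1 was also among the 10 largest. IGFL1, IGFL2 and IGFL3 encode small secreted proteins that resemble insulin-like growth factors and lie near each other on chromosome 19. Their promoter windows of 300 bases around the gene's start are shown because the 3 genes moved together, in the RefSeq sequence of GRCh38.p14 and read 5′ to 3′ on the strand of the gene. The windows are chr19:46229492-46229791 (plus strand) for IGFL1, chr19:46147988-46148287 (plus strand) for IGFL2 and chr19:46124639-46124938 (minus strand) for IGFL3. Capitals mark a match to CTTTGAT or CTTTGAA, core letters that TCF/LEF factors are known to bind, searched on both strands. The motifs differ in their last base and so cannot both match at the same place on the same strand. DKK1, a secreted Wnt inhibitor, is shown beside them as a known Wnt target that also fell, at chr10:52314031-52314330 (plus strand). Its call depended on single arrays. Of the Wnt feedback genes that fell, described below, only DKK1 held a match. For TCF7, LEF1, RNF43 and ZNRF3 no match was found in any window available.
IGFL1: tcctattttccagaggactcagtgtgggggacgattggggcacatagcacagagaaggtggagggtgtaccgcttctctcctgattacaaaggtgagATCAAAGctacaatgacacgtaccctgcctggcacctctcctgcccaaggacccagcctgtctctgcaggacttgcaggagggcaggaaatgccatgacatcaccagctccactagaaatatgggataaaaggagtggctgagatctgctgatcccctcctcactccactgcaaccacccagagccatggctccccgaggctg
IGFL2: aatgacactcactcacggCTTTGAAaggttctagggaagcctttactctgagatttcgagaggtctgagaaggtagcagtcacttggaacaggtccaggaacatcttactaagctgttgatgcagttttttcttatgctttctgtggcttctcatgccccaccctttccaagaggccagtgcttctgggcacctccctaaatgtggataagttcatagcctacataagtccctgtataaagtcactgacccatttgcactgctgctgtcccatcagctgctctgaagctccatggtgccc
IGFL3: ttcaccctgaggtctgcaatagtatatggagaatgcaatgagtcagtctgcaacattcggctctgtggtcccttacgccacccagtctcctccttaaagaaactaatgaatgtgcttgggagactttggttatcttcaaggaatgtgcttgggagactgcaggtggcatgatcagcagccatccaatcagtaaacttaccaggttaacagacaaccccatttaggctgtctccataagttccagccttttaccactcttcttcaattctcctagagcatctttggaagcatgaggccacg
DKK1: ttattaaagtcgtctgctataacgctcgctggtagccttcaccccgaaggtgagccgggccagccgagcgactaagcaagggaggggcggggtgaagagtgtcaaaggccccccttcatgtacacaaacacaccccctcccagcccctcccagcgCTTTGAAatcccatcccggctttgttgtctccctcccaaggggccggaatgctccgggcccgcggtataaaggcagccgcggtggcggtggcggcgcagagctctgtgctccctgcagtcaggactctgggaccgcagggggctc
IGFL1 holds CTTTGAT on the other strand, IGFL2 and DKK1 hold CTTTGAA on the strand of the gene, and the IGFL3 window holds neither. Among all 35116 RefSeq windows of this length, 6.86% hold a match, 2.62% to CTTTGAT and 4.43% to CTTTGAA. A match is a description of the letters only.

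The level of IGFL3 was 1.11, 1.66 and 0.05 with control siRNA and -2.65, -3.03 and -3.52 with β-catenin siRNA. Every control array was above the 75th percentile and every other array far below it, and control 3 was the lowest control. The change was -4.01 (SE 0.37, adjusted p = 1.64e-06), the largest fall among genes with a symbol. IGFL2 went from 1.49, 2.10 and 0.05 to -2.60, -2.59 and -2.64, with the low arrays close together. Its change was -3.82 (SE 0.51, adjusted p = 6.37e-05). IGFL1 was weaker throughout, at -1.88, -1.29 and -2.78 against -4.69, -4.45 and -5.10, and changed by -2.76 (SE 0.63, adjusted p = 0.00731). The groups do not overlap for any of the 3, and control 3 is the lowest control array each time. Untransfected cells had means of 0.96 for IGFL3, -0.88 for IGFL2 and -2.99 for IGFL1. Control siRNA was above them by 2.10 for IGFL2 (limma adjusted p = 0.00531), in a comparison that shares the control arrays. It was not called for IGFL1 (1.01, 0.294) or IGFL3 (-0.02, 0.988). β-catenin siRNA minus untransfected was -4.02 for IGFL3, -1.72 for IGFL2 and -1.75 for IGFL1, the last not called (limma adjusted p = 0.0577). The probes of these related genes were not checked for cross-hybridization.

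The other genes among the 10 largest falls differ in kind. IL7R, a receptor chain for interleukin 7, went from 0.06, 0.13 and -0.07 to -2.30, -2.70 and -3.28, a change of -2.80 (SE 0.33, adjusted p = 2.13e-05). RGCC, a regulator of the cell cycle, went from -0.42, -0.20 and -0.56 to -2.66, -2.91 and -3.20, and its change of -2.53 (SE 0.15, adjusted p = 3.21e-09) had the smallest error of the group. In both genes all 3 silenced arrays were clearly below all 3 controls. LINC03033, a long non-coding RNA, changed by -2.97 (adjusted p = 6.37e-05). HAPLN1, which links hyaluronan to proteoglycans in the matrix, was dim, at -3.18, -2.99 and -3.20 against -5.64, -5.79 and -6.13, and changed by -2.73 (SE 0.52, adjusted p = 0.00174). DPEP1, a membrane dipeptidase, was well above background on 3 of 3 control arrays and 2 of 3 with β-catenin siRNA, and LRRC15, a membrane protein of activated fibroblasts, on 3 and 1. Their changes of -2.51 and -2.67 lean on values at or near the floor. Normexp kept the calls of the weak genes here but made their changes smaller, with -1.24 for HAPLN1, -1.60 for IGFL1, -1.70 for LINC03033, -0.92 for DPEP1 and -0.95 for LRRC15. Among the called genes, 26 that fell were above background on 0 of 3 arrays with β-catenin siRNA. Untransfected means were -1.02 for IL7R, -1.41 for RGCC, -3.49 for LINC03033, -4.52 for HAPLN1, -4.92 for DPEP1 and -3.64 for LRRC15. Control siRNA was called above them for IL7R (1.06), RGCC (1.02), LINC03033 (1.81) and DPEP1 (1.49), a comparison that shares the control arrays. β-catenin siRNA minus untransfected was -1.74, -1.51, -1.16 and -1.02 for these genes in that order. It was -2.32 for LRRC15 and, not called, -1.33 for HAPLN1 (limma adjusted p = 0.0796).

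Across the 87 genes named by the rule, 68 have a RefSeq promoter window and 7 a match. They are 5 of 39 that fell (DKK1, DPEP1, IGFL1, IGFL2 and MYCN) and 2 of 29 that rose (CTNNA1 and RBP4). Among all called genes with a window, 6.1% of 984 lower genes and 7.93% of 719 higher genes held a match in at least 1 window. The share was 6.41% of 10684 genes not called and 8.35% of all 27305 genes in the promoter table. These shares are descriptions, and their differences were not tested.

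The largest rise was in CYP1A1, a cytochrome P450 that oxidizes aromatic hydrocarbons and is the classic target of the aryl hydrocarbon receptor. Its level was -1.96, -2.85 and -1.63 with control siRNA and 1.85, 1.66 and 1.81 with β-catenin siRNA. The silenced arrays lie within a narrow band, and even the highest control is far below it. The change was 3.92 (SE 0.41, adjusted p = 4.85e-06), or 15.1-fold. AHR, the receptor itself, differed by 0.19 (adjusted p = 0.512). NSG1, a protein of neuronal endosomes, rose from a mean of 1.46 to 4.20, a change of 2.74 (SE 0.21, adjusted p = 1.24e-07). Its 3 arrays per group were tight and did not overlap. The untransfected mean of NSG1 was 2.58. Control siRNA minus untransfected was -1.12 (limma adjusted p = 0.000893), in a comparison that shares the control arrays. MMP3, a secreted protease that digests matrix proteins, was above background on 0 of 3 control arrays and on 3 of 3 with β-catenin siRNA, where its level was -3.02, -3.04 and -3.18. It rose at least 7.64-fold (adjusted p = 0.000209) with the main background values, and by 0.92 (adjusted p = 0.00763) on the log2 scale with normexp, another background correction. Untransfected cells had a mean of -3.54, above background on 3 of 3 arrays. The control siRNA was below them (limma adjusted p = 0.000597) in a comparison that shares the control arrays. The size of that difference rests on the floor and is not measured. The silenced arrays thus lie near the untransfected level and the controls below it. Among the called genes, 14 that rose were above background on 0 of 3 control arrays.

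Large rises were also measured in genes known from hepatocytes. GLYAT, which joins glycine to acyl groups in mitochondria, went from -4.24, -4.17 and -4.51 to -0.79, -1.89 and -1.20, a change of 3.01 (SE 0.61, adjusted p = 0.00282) that with normexp was 1.70 (adjusted p = 0.0185). CFHR2, a complement factor H-related protein made by the liver, was above background on 2 of 3 control arrays. It went from -5.43, -5.63 and -6.13 to -1.56, -3.51 and -2.29 and changed by 3.28 (SE 0.66, adjusted p = 0.00281), which with normexp was 1.20 (adjusted p = 0.0955). In both genes the silenced array of slide 2 was the lowest of its group, still above every control. UGT2B15, ACSM2B and GBA3 were also among the 10 largest rises, with changes of 2.70, 2.59 and 2.58. Their calls depended on single arrays. UGT2B15 lost its call without β-catenin siRNA 1 (adjusted p = 0.0505) or β-catenin siRNA 3 (0.0533). ACSM2B lost its call without control 1 (adjusted p = 0.0532), control 3 (0.0596), β-catenin siRNA 1 (0.0787) or β-catenin siRNA 3 (0.0701). GBA3 lost its call without β-catenin siRNA 1 (adjusted p = 0.0753) or β-catenin siRNA 3 (0.0603). The log2 changes without these arrays stayed between 2.24 and 2.65. Without a filter, ACSM2B had an adjusted p of 0.0536.

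The 26 measured genes of hepatocyte secretion and metabolism had a median difference of 0.62, with 25 of 26 above 0 (96.2%) against 44.4% of all genes. The medians within slides were 0.84, 0.32 and 0.69, and with other scalings it lay between 0.62 and 0.71. Of all genes, 4.4% were called higher. Only 3 of the 26 (11.5%) were called, all higher, close to the 10.6% of all genes called in either direction. They include RBP4, the carrier of retinol in blood, at 0.98 (adjusted p = 0.0132), and the drug-metabolizing enzyme CYP2C8 at 2.56 (adjusted p = 0.0223). Without control 1, 2 or 3 the count was 2 each time, and without β-catenin siRNA 1, 2 or 3 it was 1, 3 and 1. RBP4 lost its call without β-catenin siRNA 3 (adjusted p = 0.0624). CYP2C8 lost its call without control 1 (adjusted p = 0.0706), control 2 (0.0666), control 3 (0.0535), β-catenin siRNA 1 (0.0989) or β-catenin siRNA 3 (0.0812). With normexp its change was 1.51 (adjusted p = 0.0885). The call was also lost with the deposited values (0.0725), another floor (0.0829) and no filter (0.0619). Fitted on the 6 arrays alone, limma called 12 of the 26, all higher, where 1931 of all 24643 genes were called higher in that fit. The wide spread of these genes in other conditions is part of the shared estimate of error: ACSM2B, for example, was 3.57, 2.05 and 0.28 on the 3 untransfected arrays. The control siRNA cells were themselves far below untransfected cells in this list, with a median difference of -1.96 (control siRNA minus untransfected, a comparison that shares the control arrays). ALB had a mean of 9.41 in untransfected cells, and its levels with β-catenin siRNA lie between those of the control siRNA and that mean. The group means of GLYAT (untransfected -0.21) and CFHR2 (-1.38) showed the same order. Their untransfected arrays were spread widely, at 1.37, -0.30 and -1.69 for GLYAT and 0.65, -1.60 and -3.18 for CFHR2. On slide 3 the silenced array was above the untransfected one in both genes. The difference between silenced and untransfected cells was not called (limma adjusted p = 0.236 and 0.284).

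Of 19 hepatocyte transcription factors, 3 were called (15.8%, against 10.6% of all genes), all higher, with a list median of 0.16. They were ONECUT1 and PROX1, which act in liver development, and RXRA, the shared partner of nuclear receptors, and all 3 depended on single arrays. ONECUT1 lost its call without control 1 (adjusted p = 0.0959), control 2 (0.101), control 3 (0.0805), β-catenin siRNA 1 (0.127) or β-catenin siRNA 3 (0.111). PROX1 lost its call without control 1 (adjusted p = 0.125), control 2 (0.1), control 3 (0.0822), β-catenin siRNA 1 (0.136), β-catenin siRNA 2 (0.0562) or β-catenin siRNA 3 (0.124). Its change was 1.38 with the main background values and 0.54 (adjusted p = 0.18) with normexp. RXRA lost its call without control 1 (adjusted p = 0.0526), control 3 (0.132), β-catenin siRNA 1 (0.0651) or β-catenin siRNA 2 (0.112). Without control 1, 2 or 3 the count was 0, 1 and 0, and without β-catenin siRNA 1, 2 or 3 it was 0, 1 and 1. HNF4A, a main regulator of hepatocyte genes, differed by 0.68 (adjusted p = 0.271). Among 11 measured pericentral genes, CYP1A1 rose and GLUL and LHPP fell (27.3% called, against 10.6% of all genes). GLUL, glutamine synthetase, went from 4.76, 4.82 and 4.76 to 4.36, 4.28 and 4.44, a change of -0.42 (adjusted p = 0.0294) whose groups do not overlap. The count of falls in this list was 0, 0 and 1 without control 1, 2 or 3 and 1, 0 and 0 without β-catenin siRNA 1, 2 or 3. GLUL was not called without any single array, with adjusted p of 0.0798, 0.093 and 0.0665 without control 1, 2 or 3 and 0.0773, 0.105 and 0.0563 without β-catenin siRNA 1, 2 or 3. LHPP, a phosphatase, kept its call only without control 3 or β-catenin siRNA 1 and had adjusted p of 0.113, 0.125, 0.0564 and 0.163 without control 1, control 2, β-catenin siRNA 2 and β-catenin siRNA 3. The median of the pericentral list was 0.13 and turned to -0.02 with the deposited values, -0.04 with normexp, -0.04 without β-catenin siRNA 3 and -0.06 without slide 3. It was 0.29, -0.12 and 0.23 within slides, so that it has no steady sign. CYP2E1, another pericentral enzyme, was not tested. Of 9 periportal genes, limma called 0, with 1 at an unadjusted p under 0.05 and a median of 0.16.

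Among 19 biliary and progenitor genes, 4 rose and 1 fell (26.3% called, against 10.6% of all genes), and the median was 0.00. SPP1, the secreted phosphoprotein osteopontin, went from 2.35, 2.42 and 2.22 to 3.43, 3.07 and 3.29, a change of 0.93 (adjusted p = 0.00541). SOX4, a transcription factor of progenitor cells, rose by 0.68 (adjusted p = 0.000804), and CD44, a receptor for hyaluronan, by 0.45 (adjusted p = 0.000299). NOTCH2, a receptor needed for bile duct formation, fell by 0.38 (adjusted p = 0.00222), while its ligand JAG1 rose by 0.61. With the mean of all probes of a gene in place of the strongest, CD44 changed by 0.15 (adjusted p = 0.289) and NOTCH2 by -0.24 (adjusted p = 0.0821). JAG1 was called only without β-catenin siRNA 2 and had adjusted p of 0.0555, 0.0546 and 0.0503 without control 1, 2 or 3, 0.0501 without β-catenin siRNA 1 and 0.0722 without β-catenin siRNA 3. The silenced arrays of SPP1, SOX4 and CD44 were all above their controls.

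The target genes that feed back on Wnt signaling moved in both directions. Of 14 measured, 5 fell and 1 rose (42.9% called, against 10.6% of all genes), with a median of -0.08 (-0.26, -0.10 and -0.08 within slides, and 0.00 with the spike-in scaling). TCF7 and LEF1, transcription factors that bind β-catenin on DNA and are targets themselves, both fell. TCF7L1 (0.13, limma adjusted p = 0.763) and TCF7L2 (-0.17, 0.823), counted below among the nuclear partners, were not called. TCF7 went from -2.02, -1.86 and -2.29 to -3.29, -3.10 and -3.23, a change of -1.15 (SE 0.26, adjusted p = 0.00565). LEF1 went from 0.87, 0.93 and 0.93 to 0.20, 0.23 and 0.16, a change of -0.72 (SE 0.15, adjusted p = 0.00415). In both, the arrays of each group lie close together and apart from the other group. RNF43 and ZNRF3 are the ubiquitin ligases that remove Frizzled receptors from the cell surface. RNF43 went from 1.00, 1.08 and 0.80 to 0.33, 0.24 and 0.32, a change of -0.66 (SE 0.10, adjusted p = 0.000273). ZNRF3 fell by 0.50 (adjusted p = 0.000836), from 2.94, 2.97 and 2.94 to 2.34, 2.55 and 2.47. DKK1 fell by 0.60 (adjusted p = 0.0336), but kept its call only without β-catenin siRNA 1. Its adjusted p was 0.1, 0.115 and 0.052 without control 1, 2 or 3, 0.116 without β-catenin siRNA 2 and 0.111 without β-catenin siRNA 3. BAMBI, a decoy receptor of TGFβ signaling, was the member that rose, from 3.79, 3.77 and 3.89 to 4.78, 4.68 and 4.86, a change of 0.96 (SE 0.15, adjusted p = 0.000287).

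AXIN2, the most widely used target gene of the pathway, had levels of 0.06, 0.15 and -0.04 with control siRNA and 0.15, 0.10 and 0.26 with β-catenin siRNA. These groups overlap, and the difference was 0.11 (SE 0.10, adjusted p = 0.615). SP5, another target, differed by -0.08 (adjusted p = 0.621). NKD1 was at the floor on all 6 arrays. LGR5, DKK4, NOTUM, WIF1, TNFRSF19 and ASCL2 did not pass the filter and were not tested. The members of the list thus include genes with clear falls and genes whose groups overlap.

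Among 31 Wnt ligands, receptors and secreted inhibitors, 3 rose and 4 fell (22.6% called, against 10.6% of all genes), with a median of -0.08. PORCN, the enzyme that attaches the fatty acid Wnt proteins need for secretion, went from 4.08, 3.91 and 4.05 to 3.05, 3.09 and 2.77, a change of -1.04 (SE 0.17, adjusted p = 0.000495). The ligand WNT3 went from 0.43, 0.35 and 0.54 to -0.26, -0.27 and -0.44, a change of -0.76 (SE 0.14, adjusted p = 0.00144). ROR2, a receptor for Wnt proteins that act without β-catenin, fell by 0.68 (adjusted p = 7.57e-05). For all 3 genes the groups were well apart. FRZB, a secreted Wnt inhibitor, was dim and fell by 0.83 (adjusted p = 0.00748), which became -0.74 (adjusted p = 0.0622) with quantile normalization and -0.35 (adjusted p = 0.0104) with normexp. SFRP2, a related inhibitor, moved the other way, from -3.95, -3.77 and -4.19 to -3.06, -2.90 and -2.82, a change of 1.04 (SE 0.19, adjusted p = 0.00133) that with normexp was 0.47 (adjusted p = 0.0122). The Frizzled receptor FZD3 rose by 0.57 (adjusted p = 0.00628) and FZD1 by 0.24 (adjusted p = 0.0358), which on the 6 arrays alone had an adjusted p of 0.0555. Without each of the 6 arrays in turn, 2 members of the list were called higher instead of 3. With the slide as a block, 3 members were higher and 9 lower.

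Of the 25 genes of the destruction complex and of the nuclear partners of β-catenin, all measured, 3 rose and 0 fell in the limma fit (12% called, close to the 10.6% of all genes), with 8 of the 25 at an unadjusted p under 0.05 and a median of -0.01. In the whole set of genes, 4.4% were called higher. FBXW11, a subunit of the ubiquitin ligase that recognizes marked β-catenin, went from 3.32, 3.43 and 3.09 to 3.83, 3.79 and 3.73, a change of 0.50 (adjusted p = 0.000702). AXIN1, the scaffold of the complex, rose by 0.35 (adjusted p = 0.0405) and the co-activator CREBBP by 0.38 (adjusted p = 0.0374), but AXIN1 missed the threshold without any single array. Its adjusted p was 0.0782, 0.0618 and 0.167 without control 1, 2 or 3 and 0.108, 0.0694 and 0.138 without β-catenin siRNA 1, 2 or 3. With normexp the AXIN1 change was 0.24 (adjusted p = 0.116). CREBBP missed the threshold without control 1 (0.139), control 2 (0.131), β-catenin siRNA 2 (0.0577) and β-catenin siRNA 3 (0.213). It also missed the threshold on the 6 arrays alone (0.0609), on the 12 transfected arrays (0.0597) and with no filter (0.0611). With the slide as a block, 3 members were higher and 3 lower.

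In the list of adherens junction genes, 4 of 20 rose and 2 fell (30% called, against 10.6% of all genes), with a median of 0.00. The falls and the share called include CTNNB1, the target of the siRNA. With the slide as a block 5 were higher and 4 lower, on the 6 arrays alone 5 and 7, and on the 12 transfected arrays 4 and 6, so that the balance depends on the fit. CTNNBIP1, a small protein that binds β-catenin and keeps it from TCF factors, went from 1.64, 1.67 and 1.60 to 2.28, 2.33 and 2.37, a change of 0.69 (SE 0.11, adjusted p = 0.000465). CTNNA1, α-catenin, the partner of β-catenin in the junction, went from 3.31, 3.33 and 3.24 to 3.67, 3.62 and 3.65, a change of 0.35 (SE 0.09, adjusted p = 0.0105). In both genes all 3 silenced arrays were above the controls. NECTIN3, a junction receptor, rose by 0.48 (adjusted p = 0.00274), which with the mean of its probes was 0.01 (adjusted p = 0.982). CDH2 (N-cadherin) rose by 0.37 and VCL (vinculin) fell by 0.33. CDH2 was not called without β-catenin siRNA 2 (adjusted p = 0.0563) or control 3 (0.057), nor with the mean of its probes, 0.26 (adjusted p = 0.102). VCL was not called without β-catenin siRNA 1 (0.074), control 2 (0.0952) or β-catenin siRNA 3 (0.0668). The count of falls was 1 without control 2, β-catenin siRNA 1 or β-catenin siRNA 3. CDH1 (E-cadherin), the main epithelial partner, differed by -0.52 (adjusted p = 0.49).

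Of 21 desmosome and tight junction genes, 9 were called (42.9%, where 10.6% of all genes were), 4 higher and 5 lower, with a median of 0.14. On the 6 arrays alone 8 were higher and 4 lower, and on the 12 transfected arrays 7 and 5, so that the balance depends on the fit. CLDN2, a claudin that makes tight junctions permeable to cations, went from -1.23, -0.74 and -1.72 to -3.14, -3.36 and -3.03, a change of -1.95 (SE 0.29, adjusted p = 0.000219). PKP3, a plaque protein of desmosomes, went from -1.84, -1.88 and -1.84 to -2.91, -2.67 and -3.19, a change of -1.07 (adjusted p = 0.0073), which was -0.94 (adjusted p = 0.0516) without β-catenin siRNA 3. F11R, a junctional adhesion molecule, rose by 0.47 (adjusted p = 0.00152). Members of the same junction thus changed in both directions. DSC2, CLDN4 and CXADR were also called lower, CLDN4 not on the 6 arrays alone (adjusted p = 0.0847), and OCLN and CGN rose. OCLN lost its call without control 1 (adjusted p = 0.102), control 3 (0.127), β-catenin siRNA 1 (0.0963), β-catenin siRNA 2 (0.0764) or β-catenin siRNA 3 (0.102). Its change was 0.85 with the main background values and 0.46 (adjusted p = 0.0864) with normexp. CGN lost its call without control 1 (adjusted p = 0.0694), control 2 (0.0621), control 3 (0.0664), β-catenin siRNA 1 (0.0733) or β-catenin siRNA 3 (0.0955). Without control 1, 2 or 3 the list held 2, 3 and 2 rises and 2, 4 and 2 falls, and without β-catenin siRNA 1, 2 or 3 it held 2, 3 and 2 rises and 3, 3 and 1 falls.

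Among the genes of G1, 2 of the 3 D-type cyclins rose. CCND1, cyclin D1, which starts the passage through G1 and is often listed as a Wnt target, went from 0.19, 0.36 and 0.08 to 1.01, 1.09 and 1.19, a change of 0.89 (SE 0.13, adjusted p = 0.000163). CCND2 rose by 0.71 (adjusted p = 0.000551), and for both cyclins every silenced array was above every control. CCND3 differed by -0.06 (adjusted p = 0.779). MYCN, a transcription factor of growth, went from -4.21, -4.26 and -4.37 to -5.90, -5.82 and -6.13, where 2 of 3 arrays were above background, a change of -1.68 (adjusted p = 0.00854) that with normexp was -0.61 (adjusted p = 0.0491). MYC differed by 0.31 (adjusted p = 0.0655), with an adjusted p of 0.0489 with the slide as a block and 0.0103 on the 6 arrays alone. In all, 4 of 22 G1 genes rose and 2 fell (27.3% called, against 10.6% of all genes), with a median of -0.07 (0.02 with the spike-in scaling), and with the slide as a block 6 rose and 2 fell. On the 6 arrays alone 6 were higher and 7 lower, and on the 12 transfected arrays 6 and 6, so that the balance of rises and falls depends on the fit. CDKN1B and CDKN2C, inhibitors of cyclin-dependent kinases, rose by 0.46 and 0.43, and CDK4 fell by 0.41. CDKN1B lost its call without control 1 (adjusted p = 0.0502) or control 2 (0.0546). CDKN2C lost its call without control 1 (adjusted p = 0.123), control 2 (0.125), control 3 (0.0982), β-catenin siRNA 1 (0.0687), β-catenin siRNA 2 (0.162) or β-catenin siRNA 3 (0.123). CDK4 lost its call without control 1 (adjusted p = 0.0927), control 2 (0.108) or β-catenin siRNA 3 (0.147). Without control 1, 2 or 3 the list held 2, 2 and 3 rises and 1, 1 and 2 falls, and without β-catenin siRNA 1, 2 or 3 it held 3 rises each time and 2, 2 and 1 falls.

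The 31 DNA replication genes had a median of -0.34 (-0.30, -0.15 and -0.52 within slides), with 9.68% of them above 0. In the fit of 24 arrays limma called 1 of them (3.23%, against 10.6% of all genes), lower. Of the 31, 14 had an unadjusted p under 0.05, as had 5585 of all 24643 genes. MCM2, a subunit of the replicative helicase, differed by -0.40 (adjusted p = 0.171) and PCNA, the sliding clamp of the polymerases, by -0.16 (adjusted p = 0.503). Fitted on the 6 arrays alone, limma called 15 of the 31, all lower, where 2390 of all 24643 genes were lower in that fit. With the slide as a block 3 were lower, beside 2434 of all genes. With Wnt3a present, the same list had a median of 0.21, with 2 members higher. Of 24 mitosis genes, limma called 0 (against 10.6% of all genes), with 1 at an unadjusted p under 0.05. Their median was 0.04, and 1 was called higher with the slide as a block and 2 higher and 1 lower in the fit of 6 arrays. Relative to untransfected cells, the control siRNA cells had medians of 0.96 for the replication genes and 1.05 for mitosis.

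Target genes of p53, the factor that answers DNA damage, were called in 7 of 22 cases (31.8%, against 10.6% of all genes), 5 higher and 2 lower, with a median of 0.19 (0.16, 0.23 and 0.14 within slides). TP53INP1 went from 2.38, 2.40 and 2.35 to 2.97, 3.01 and 2.91, a change of 0.58 (adjusted p = 0.000347). SESN2, an inhibitor of mTORC1, rose by 0.56 (adjusted p = 0.00266) and BTG2, an antiproliferative protein, by 0.48 (adjusted p = 0.00198). These are well measured genes whose silenced arrays were all above their controls. GDF15, a stress-induced cytokine, fell by 0.56 (adjusted p = 0.0119) and PLK2 by 0.39 (adjusted p = 0.0123). GDF15 was not called without control 1 (adjusted p = 0.0562) or β-catenin siRNA 3 (0.0688), and the count of falls was 0 there and 2 without each of the other arrays. With the slide as a block, 10 members were higher and 2 lower.

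Of 23 collagens and matrix genes, 5 fell and 0 rose in the limma fit (21.7% called, against 10.6% of all genes), with 8 at an unadjusted p under 0.05 and a median of -0.15. On the 12 transfected arrays 6 were called lower and 1 higher. The median was -0.25, -0.18 and 0.07 within slides, so that the slides differ in its sign, and between -0.13 and -0.06 with other scalings. DCN, decorin, a small proteoglycan that binds collagen fibrils, had the strongest signal of these 5. It went from 4.71, 4.99 and 4.32 to 3.44, 3.13 and 2.95, a change of -1.50 (SE 0.18, adjusted p = 2.49e-05). LUM, lumican, a relative of decorin, went from 2.67, 2.79 and 2.51 to 1.67, 1.56 and 1.68, a change of -1.02 (SE 0.19, adjusted p = 0.00132). SPARC, a matrix protein that binds calcium and collagen, went from 0.61, 0.70 and 0.57 to -0.05, -0.04 and -0.13, a change of -0.70 (SE 0.11, adjusted p = 0.000335). Each of these 3 had all its silenced arrays below all controls. HAPLN1 is described above, and FBN1, fibrillin, fell by 0.67 but missed the threshold without any single array (adjusted p of 0.0995, 0.088 and 0.0745 without control 1, 2 or 3 and 0.129, 0.0694 and 0.0642 without β-catenin siRNA 1, 2 or 3). COL1A1, the main chain of type I collagen, differed by 0.18 (adjusted p = 0.862).

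Of 18 mesenchymal and smooth muscle genes, 4 fell and 0 rose in the limma fit (22.2% called, against 10.6% of all genes), with 7 at an unadjusted p under 0.05 and a median of -0.28 (-0.27, -0.33 and -0.15 within slides). On the 6 arrays alone 6 were called lower and 1 higher. VIM, vimentin, the intermediate filament of mesenchymal cells, went from -1.27, -1.49 and -1.02 to -2.07, -1.93 and -2.39, a change of -0.86 (SE 0.19, adjusted p = 0.00552). TAGLN, an actin-binding protein of smooth muscle, fell by 1.23 (adjusted p = 0.0381), and PDGFRB and S100A4 also fell. TAGLN lost its call without control 1 (adjusted p = 0.122), control 2 (0.133), β-catenin siRNA 1 (0.0669), β-catenin siRNA 2 (0.0704) or β-catenin siRNA 3 (0.164). S100A4 lost its call without control 1 (adjusted p = 0.113), control 2 (0.0937), control 3 (0.0681), β-catenin siRNA 2 (0.0749) or β-catenin siRNA 3 (0.164). PDGFRB is described above. The count was 1, 1 and 2 without control 1, 2 or 3 and 2, 1 and 2 without β-catenin siRNA 1, 2 or 3. ACTA2, smooth muscle actin, differed by -0.11 (adjusted p = 0.34). Among 24 target genes of YAP and TAZ, the effectors of the Hippo pathway, 6 rose and 4 fell (41.7% called, against 10.6% of all genes), with a median of 0.21. ANKRD1 went from 0.41, 0.41 and 0.34 to 1.80, 1.48 and 1.61, a change of 1.24 (SE 0.18, adjusted p = 0.000154), and CCN2, a matricellular growth factor, from 0.11, 0.21 and 0.01 to 1.28, 1.09 and 1.32, a change of 1.12 (SE 0.27, adjusted p = 0.00872). ARHGEF17 fell by 0.66 (adjusted p = 6.1e-05), and F3, tissue factor, TGFB2 and TEAD1 fell as well. F3 lost its call without control 1 (adjusted p = 0.108), control 2 (0.127), control 3 (0.0616), β-catenin siRNA 1 (0.089), β-catenin siRNA 2 (0.0973) or β-catenin siRNA 3 (0.106). TGFB2 lost its call without control 1 (adjusted p = 0.0548), control 3 (0.106), β-catenin siRNA 1 (0.0916), β-catenin siRNA 2 (0.0609) or β-catenin siRNA 3 (0.0503). Without control 1, 2 or 3 the falls numbered 1, 2 and 1, and without each of the β-catenin siRNA arrays 1, while the rises numbered 5 each time.

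Among 26 measured interferon-stimulated genes, 8 fell (30.8%, where 6.17% of all genes fell) and 0 rose in the limma fit, 18 were not called, and 13 had an unadjusted p under 0.05. The median was -0.22 (-0.19, -0.23 and -0.24 within slides), with 23.1% of the members above 0, and with other scalings it lay between -0.22 and -0.13. MX2, a GTPase that restricts viruses, went from -1.87, -1.67 and -1.88 to -3.28, -3.30 and -3.36, a change of -1.51 (SE 0.20, adjusted p = 5.82e-05). OASL, an antiviral protein related to oligoadenylate synthetases, went from -1.21, -1.41 and -1.39 to -2.71, -2.87 and -2.93, a change of -1.50 (SE 0.23, adjusted p = 0.000292). IFI6, a membrane protein induced by interferon, went from 2.63, 2.59 and 2.45 to 1.80, 1.88 and 1.74, a change of -0.75 (adjusted p = 0.000131), and IFI44L fell by 0.61 (adjusted p = 6.82e-05). Every silenced array was below every control for each of these genes. Between 7 and 8 members were called lower without each of the 6 arrays in turn. With the spike-in scaling 2 were called lower. Untransfected cells had means of -2.45 for MX2, -1.86 for OASL and 2.58 for IFI6, and the control siRNA differed from them by 0.65, 0.53 and -0.03 in a comparison that shares the control arrays.

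Of 17 inflammatory chemokines and cytokines, 2 fell (11.8% called, close to the 10.6% of all genes), with a median of 0.02. In the whole set of genes, 6.17% were called lower. IL1B, interleukin 1β, went from -3.52, -3.54 and -3.48 to -4.17, -4.51 and -4.36, a change of -0.83 (adjusted p = 0.00874). With normexp the IL1B change was -0.47 (adjusted p = 0.00131). ICAM1, an adhesion molecule for leukocytes, fell by 0.44 (adjusted p = 0.018) and was not called without control 1 (0.0659), control 2 (0.0925), β-catenin siRNA 2 (0.076) or β-catenin siRNA 3 (0.069). Of 24 genes of cholesterol synthesis and uptake, 4 fell and 0 rose in the limma fit (16.7% called, against 10.6% of all genes), with 12 at an unadjusted p under 0.05, a median of -0.28 and 12.5% of members above 0. Within slides the median was -0.22, -0.48 and -0.13, and with other scalings it lay between -0.27 and -0.19. SREBF2, the transcription factor that controls the pathway, went from 2.87, 2.92 and 2.75 to 2.46, 2.37 and 2.33, a change of -0.46 (SE 0.11, adjusted p = 0.00734). MSMO1, an enzyme of sterol synthesis, and INSIG1, a sensor of sterols, fell by 0.81 and 0.61. MSMO1 lost its call without control 1 (adjusted p = 0.0554), control 2 (0.095), β-catenin siRNA 2 (0.105) or β-catenin siRNA 3 (0.0566). INSIG1 lost its call without control 1 (adjusted p = 0.101), control 2 (0.124), β-catenin siRNA 2 (0.128) or β-catenin siRNA 3 (0.0983). The count was 1, 1 and 4 without control 1, 2 or 3 and 3, 1 and 2 without β-catenin siRNA 1, 2 or 3, and SREBF2 was called each time. With the slide as a block 6 fell, on the 6 arrays alone 8 and on the 12 transfected arrays 11, while with the spike-in scaling 0 fell. The plot of the gene lists shows all members with the list medians.

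**Figure D2:**
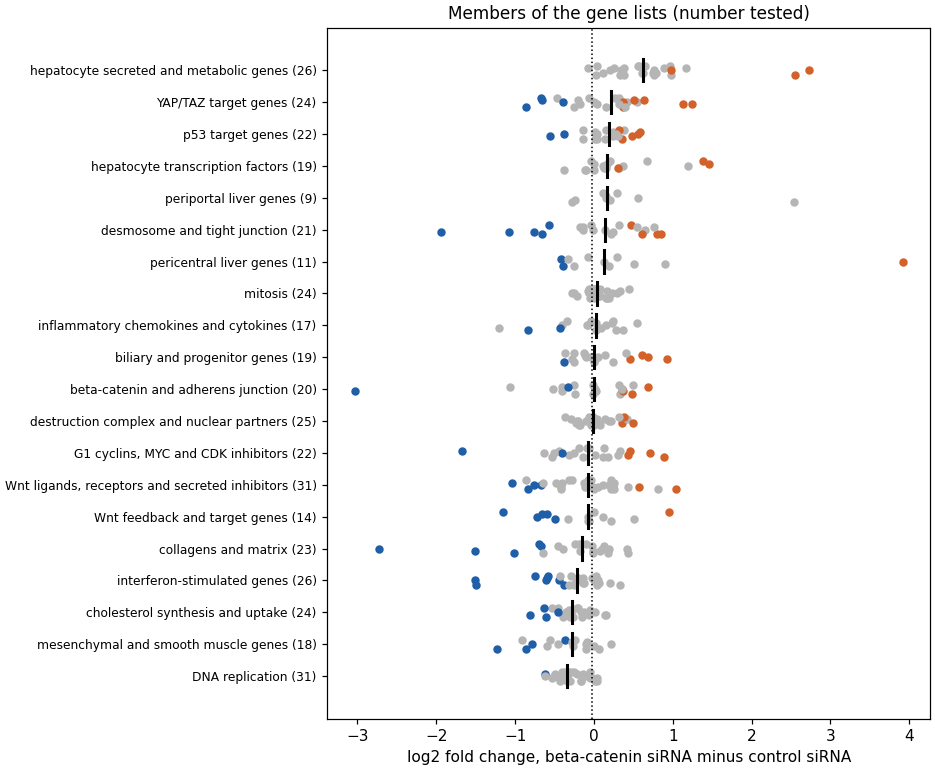
Log2 fold change (β-catenin siRNA minus control siRNA, horizontal) of each measured member of the 20 gene lists, with the number of members in brackets: orange points were called higher, blue points called lower, grey points not called, the black bar is the list median and the dotted line the median of all genes (-0.03). Medians run from -0.34 for DNA replication to 0.62 for hepatocyte secreted and metabolic genes.

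The same knockdown was also done with Wnt3a present, on 6 other arrays that share none with those above. There, 1006 genes were higher (4.08%) and 1602 lower (6.5%). Of the 2605 genes called without Wnt3a, 1566 were called in the same direction with it, which is 60.1% of the former and 60% of the 2608 called with Wnt3a, and 0 in the opposite direction by limma. The sign of the difference was the same for 2554 of the 2605 (98%), whatever the call. Genes called higher had a median of 0.49 without Wnt3a and 0.40 with it, and genes called lower -0.56 and -0.46. The shared count was 1005 without β-catenin siRNA 3 and between 1050 and 1415 without each other array of the 12. CYP1A1 changed by 3.79 with Wnt3a and NSG1 by 2.52, close to the values without it. MX2 (-1.64), OASL (-1.33), IL7R (-2.73), PORCN (-1.11) and CCND1 (0.71) also changed alike in both settings. Larger falls with Wnt3a were measured for IGFL3 (-5.96), IGFL2 (-6.54), CLDN2 (-3.23) and TCF7 (-2.08). SOX4 differed by 0.14 (adjusted p = 0.608) and CD44 by 0.07 (adjusted p = 0.687) with Wnt3a, where neither was called.

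The difference between the settings was tested directly, as the change with Wnt3a minus that without. It passed for 4 genes, with 823 at an unadjusted p under 0.05, and RNF43 was the only 1 of the 4 that was also called without Wnt3a. The differences for the IGFL genes, CLDN2, TCF7, SOX4 and CD44 did not pass. AXIN2, whose groups overlap without Wnt3a, fell by 0.74 (adjusted p = 7.88e-05) with it, and this difference did not pass either (adjusted p = 0.0519). With Wnt3a, where 6.5% of all genes were lower, 7 of 14 Wnt feedback genes fell and 1 rose, with a median of -0.54, and 12 of 23 matrix genes fell, with a median of -0.41. The interferon list had 8 members lower with Wnt3a, not all of them the same genes as without, and a median of -0.26. The plot of both settings shows the called genes around the line of equal change.

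**Figure D3:**
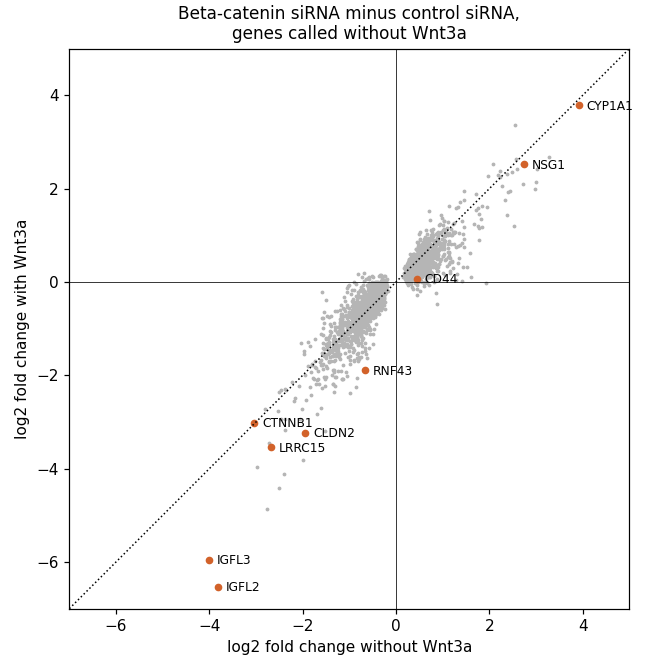
Log2 fold change with β-catenin siRNA in the presence of Wnt3a (vertical) against that without Wnt3a (horizontal) for the 2605 genes called without it, with the dotted line of equal change. CYP1A1 and NSG1 lie near the line, while IGFL2 and IGFL3 lie below it at -6.54 and -5.96 with Wnt3a.

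The genes changed by the knockdown were also set beside the response of untransfected cells to Wnt3a, a comparison on 6 arrays that again shares none with the knockdown. Wnt3a raised 738 genes (2.99%) and lowered 643 (2.61%). Of the 1520 genes that fell with β-catenin siRNA, 197 rose with Wnt3a, which is 13% of the former and 26.7% of the latter. Only 40 of them fell with Wnt3a (2.63% and 6.22%). Of the 1085 genes that rose with β-catenin siRNA, 99 fell with Wnt3a (9.12% and 15.4%) and 25 rose (2.3% and 3.39%). Opposite directions were thus more frequent than shared ones, with 361 genes in all 4 groups together. The median response to Wnt3a was 0.10 for genes that fell with the siRNA, -0.10 for genes that rose and 0.01 for all genes.

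IGFL2 had the largest response to Wnt3a of the genes named here that are among the 197, with a log2 fold change of 4.15 (adjusted p = 0.000149) and a knockdown change of -3.82. LRRC15 (3.12), LINC03033 (2.95), HAPLN1 (2.39), IGFL1 (2.40), IGFL3 (2.26), MYCN (1.91), TCF7 (1.68), CLDN2 (1.44), RGCC (1.16), LEF1 (1.12) and LUM (1.04) also rose with Wnt3a and fell with β-catenin siRNA. IL7R (0.22, adjusted p = 0.821), DPEP1 (-0.06, 0.966) and IFI6 (-0.15, 0.477) fell with the siRNA but were not called for Wnt3a. The same holds on the other side for CYP1A1 (-0.08, 0.965) and NSG1 (-0.49, 0.183). MMP3 was higher in both comparisons, with a response to Wnt3a of 1.67 (adjusted p = 0.0347). The 197 depends on the scaling and on the arrays. It was 8 with spike-in scaling and 2 when each comparison was fitted on its own arrays, where the Wnt3a response itself fell from 1381 genes to 2. Without single arrays it was 116, 125 and 110 without control 1, control 2 and β-catenin siRNA 3, 126 without β-catenin siRNA 1, 103 and 122 without untransfected 1 and 2, and 79 and 332 without the Wnt3a-treated untransfected arrays 2 and 3. The plot of the Wnt3a response shows the 361 genes.

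**Figure D4:**
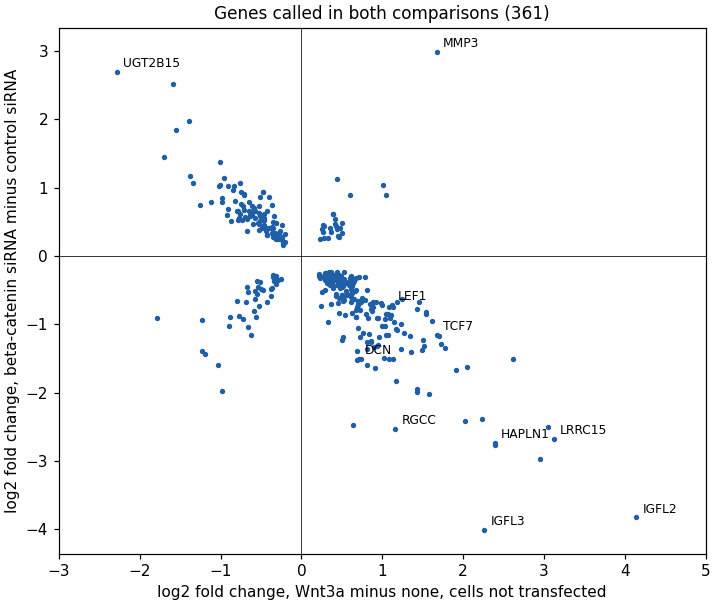
Log2 fold change with β-catenin siRNA (vertical) against the log2 fold change with Wnt3a in untransfected cells (horizontal) for the 361 genes called in both comparisons, a point for each gene. The lower right field holds the 197 genes that fell with the siRNA and rose with Wnt3a, and the upper left field the 99 with the opposite directions.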

How the data were processed

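RNA was measured on one-colour Agilent arrays. The authors deposited linear intensity values, which the file headers show to have had background subtracted and spatial trends removed by Feature Extraction, and are not normalized between arrays. The authors also deposited a table of log2 values relative to the 75th percentile, centred per probe, for 25443 probes, which served as an alternative. The main values here are log2 of the intensity over the array's own 75th percentile. Spots the scanner software marked as outliers were left out, replicate spots were averaged, and a gene was represented by its strongest probe. A probe stayed in (31062 did) if some condition had it well above background on all 3 arrays. Of the 4839 genes with several kept probes, 718 had some but not all called, 2 of them in opposite directions. Symbols came from RefSeq transcripts.

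limma 3.58.1 in R 4.3.3 was fitted to 8 condition means over 24 arrays (eBayes with a trend), two-sided, and p was adjusted by Benjamini-Hochberg across the genes. Plots come from Python 3.11.15 with matplotlib 3.10.9. The error in brackets is limma's standard error. Same-numbered control and β-catenin siRNA arrays had deviations from their group means that correlated at 0.447, 0.419 and 0.589, against -0.412 to -0.0501 for other numbers, so that the numbers pair the arrays. The block on the slide was run as an alternative, and all 89 called genes followed beside CTNNB1 kept their calls with it. The highest correlation between arrays of a condition was 0.9961. The members and lists were chosen with earlier results of these data known. Named genes are CTNNB1, the 10 largest called rises and falls that changed the same way on all slides and were above background on all arrays of a group, and called members of the 20 gene lists (up to 6 called, otherwise the 4 largest). AXIN2, MYC, AHR, HNF4A, MCM2, ROR2 and other list members outside that rule were chosen after their values were seen. Lists are described by counts and medians, with no test. Values of some genes that are included in the counts, among them 1 of the 4 whose change differed with Wnt3a, are not reported here.

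Alternatives tried were spike-in scaling, quantile normalization, the deposited table, normexp (run on the median signal, since the files hold no mean), another floor, other filters, the mean of the probes, outlier spots kept, the block, fewer arrays, unadjusted p with fold thresholds, and leaving out arrays. For the deposited table, the trend was first fitted on the centred mean, where CTNNB1 had an adjusted p of 0.0497 and 2546 genes were called. It was then fitted on the scanner level, a choice made after the first fit was seen, which gave 3.98e-09.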

Additional observations from a re-analysis of the deposited data

Results flagged for a closer look

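The change with β-catenin siRNA differed between cells with and without Wnt3a for 4 genes, by limma's test of the difference (with minus without Wnt3a). For RNF43 it was -1.23 (SE 0.14, adjusted p = 0.00129), with a fall of 0.66 without Wnt3a and of 1.90 with it. For NPTX2 it was 0.67 (SE 0.09, adjusted p = 0.00559), with differences of 0.12 and 0.78. For DIRC3 it was -1.61 (SE 0.26, adjusted p = 0.0288), with differences of -0.05 and -1.66. Its signal with both β-catenin siRNA and Wnt3a was above background on 0 of 3 arrays and set to the floor, so that the sizes of the fall with Wnt3a and of the difference rest on the floor and are not measured. The cause of these differences was not tested.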

How the results depend on the processing

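CTNNB1 passed in every alternative, between -3.28 and -2.94. The count of 2605 genes without Wnt3a was 171 with spike-in scaling, 4095 with the slide as a block, 4321 on the 6 arrays alone, 4239 on the 12 transfected arrays, 1395 with unadjusted p and fold thresholds, and between 473 and 2377 without a replicate. Without single arrays it was 1435, 1726 and 1749 (control 1, 2 and 3) and 1722, 1751 and 1353 (β-catenin siRNA 1, 2 and 3). The other alternatives of processing gave between 2118 and 2621. Without single arrays of untransfected cells, with or without Wnt3a, or of transfected cells with Wnt3a, the count lay between 2352 and 3005.

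With Wnt3a, the 2608 became 641 (spike-in), 4019 (12 transfected arrays) and 1593 (thresholds), 588 to 2646 without a replicate, and 1684 without β-catenin siRNA with Wnt3a 2. The 4 genes whose change differed became 0 (spike-in), 1 (normexp), 7 (mean of probes), 10 (block), 41 (the arrays compared, which are the 12 transfected), 140 (thresholds), 0 to 11 without a replicate, and 2 to 4 without single arrays. The 1566 shared calls became 123 (spike-in), 2406 (block), 2646 (12 transfected arrays) and 855 (thresholds), 271 to 1467 without a replicate, and 1005 without β-catenin siRNA 3.

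The 1381 genes of the Wnt3a response became 289 (spike-in), 848 (no filter), 2824 (block), 2 (its 6 arrays alone), 6 to 6344 without a replicate, and 180 to 3188 without single arrays. They were 396, 408 and 2803 without untransfected 1, 2 and 3, and 180 and 3188 without Wnt3a-treated 2 and 3. The 197 genes lower with the siRNA and higher with Wnt3a became 8 (spike-in), 397 (block), 2 (the arrays compared), 3 to 384 without a replicate, and 79 to 332 without single arrays, namely 103, 122, 79 and 332 (untransfected 1 and 2, Wnt3a-treated 2 and 3), 116, 125, 126 and 110 (control 1 and 2, β-catenin siRNA 1 and 3). The 12 transfected arrays give no value for these results.

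TCF7L2, not called in the main fit at -0.17 (adjusted p = 0.823), turned to 0.04 with the mean of probes. DIRC3, not called without Wnt3a, turned to 0.02 (quantile), 0.04 (spike-in), between -0.28 and 0.24 without a replicate, 0.08 without control 2 and 0.11 without β-catenin siRNA 2. Of the 89 called genes followed beside CTNNB1, 15 passed in every alternative that tested them, 74 were lost in at least 1 alternative, and 0 reversed. Where arrays were left out, fewer samples remained. For the other changes, the cause was not tested. The number of arrays limits the precision, and genes near background are limited by the floor.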
